A study of Mus musculus with 12 samples.

Results

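The 40 genes described here encode the folding machinery of the endoplasmic reticulum (ER) and the unfolded protein response (UPR) that controls it. They were chosen by symbol from what is known of that machinery, with earlier results of these data known. Their counts beside those of all genes are therefore a description, not an independent test of the set. A gene was measured where a probe set carried its symbol alone, and where several did, the one with the highest mean over the arrays stood for it. By this rule 39 of the 40 genes were measured, among 22180 genes in all. Ero1lb was found under an older symbol (Ero1b in RefSeq), and Pdia4 is not analysed here because its probe set carries another gene name too. The measured genes comprised 10 ER chaperones and co-chaperones, 5 disulfide isomerases and oxidases, 3 lectin chaperones, 7 genes of ER-associated degradation (ERAD), 5 genes of the translocon and of glycosylation, 4 genes of the stress sensors with Xbp1, and 5 genes of the ATF4 arm.

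Liver RNA of male mice had been hybridised to 1-colour Affymetrix expression arrays. The groups were Lats2-CKO mice on a high-cholesterol (Paigen) diet, wild-type mice on that diet, Lats2-CKO mice on a normal diet and wild-type mice on the normal diet, with 3 biological replicates each, which gave 12 arrays. Mice of 8 weeks of age, per the labels, were fed for 9 weeks, either with 1.25% cholesterol in the diet or on a chow without cholesterol. Below, high cholesterol names the Paigen diet as a whole, and any other difference from the chow cannot be told apart from cholesterol. LATS2 is a Hippo pathway kinase, and the series set out to see what its loss and the diet did to the liver. The labels call the mutants both Lats2-CKO and Lats2-KO and give neither the deleted part of the gene nor the cells that lack it, so the mutants are a model of Lats2 loss only as far as these names go. All values are of whole liver, where fewer cells of a type and less RNA per cell cannot be told apart.

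The ER is where secreted and membrane proteins are threaded through the translocon, glycosylated, folded with the help of chaperones and disulfide isomerases, and, where folding fails, sent out again for destruction by ERAD. When unfolded proteins pile up, the sensors IRE1 (Ern1), PERK (Eif2ak3) and ATF6 set off the UPR: IRE1 splices the Xbp1 transcript, ATF6 is cut to release a transcription factor, and PERK slows translation while favouring that of ATF4. Hepatocytes secrete most plasma proteins and carry much ER, and spliced XBP1 and cleaved ATF6 raise the chaperone genes through short promoter motifs, the best known being the ER stress response element (ERSE).

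The ERSE pairs CCAAT with CCACG, 9 letters apart, on either strand. Promoter windows from RefSeq (assembly GRCm38.p6), which run from 250 bases before to 50 bases after a gene's start, were in hand for 34 of the 40 genes. Of 32851 windows in the table, 39 held an ERSE (0.119%), and these included windows of 10 of the 34 genes. Their sites are shown because the changes by diet are set beside them further on, 5′ to 3′ on the strand that reads CCAAT first, with CCAAT and CCACG in capitals.
Calr, chr8:84847075-84847093: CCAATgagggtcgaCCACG
Canx, chr11:50325800-50325818: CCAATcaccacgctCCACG
Creld2, chr15:88819520-88819538: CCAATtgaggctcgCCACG
Derl3, chr10:75893242-75893260: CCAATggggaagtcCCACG
Dnajc3, chr14:118937827-118937845: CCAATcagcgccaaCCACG
Ero1b, chr13:12565682-12565700: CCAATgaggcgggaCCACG
Hsp90b1, chr10:86705638-86705656: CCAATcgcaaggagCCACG
Hsp90b1, chr10:86705533-86705551: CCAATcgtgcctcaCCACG
Hspa5, chr2:34772025-34772043: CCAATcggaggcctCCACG
Pdia6, chr12:17266491-17266509: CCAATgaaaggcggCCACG
Syvn1, chr19:6046532-6046550: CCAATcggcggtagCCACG
The capitals were fixed by the search, while the letters between them differed from site to site. Hsp90b1 held 2 sites, 1 on each strand.

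Array 3 of the wild-type normal-diet group correlated most closely, over all genes, with an array of the other diet (0.993 with Lats2-CKO high-cholesterol array 3, against at most 0.982 with arrays of its own group). It stays under its label here, with results given both with and without it. Since it was singled out from these same data for its likeness to the other diet, leaving it out tends to widen the diet differences. It also tends to narrow their SE, so the smaller p-values without it are not independent evidence. By their median over all probe sets the arrays formed a higher set (3.48 to 3.49) and a lower set (3.42 to 3.43). In the higher set, Lats2-CKO and wild type alike, were array 1 from high cholesterol and arrays 1 and 2 from the normal diet. The labels do not say what sets them apart. Lats2 itself read 4.62, 4.89 and 4.99 in Lats2-CKO livers on high cholesterol against 5.12, 5.71 and 5.97 in wild-type livers. On the normal diet it read 4.37, 4.76 and 4.79 in Lats2-CKO livers against 5.15, 5.14 and 5.69 in wild-type livers. Every Lats2-CKO array lay below every wild-type array, by 0.72 ± 0.16 on average (SE), which did not pass in limma (adjusted p = 0.486). Whether the probe set lies in the deleted part of the gene is not given.

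On the high-cholesterol diet 6 of 10 chaperone and co-chaperone genes were expressed at lower levels than on the normal diet. So were 2 of 3 lectin chaperones and 3 of 7 ERAD genes. Of the 5 disulfide isomerases and oxidases 0 passed, although all 5 had lower fitted values. Differences between the roles were not tested. Over both genotypes 11 of the 39 genes fell at a Benjamini-Hochberg adjusted p below 0.05 in limma, and 0 rose. They were the chaperones Hspa5, Hsp90b1, Hyou1, Sdf2l1, Dnajb11 and Creld2, the lectins Calr and Mlec, and the ERAD genes Derl3, Sel1l and Syvn1. Over all genes 1.24% were called in this comparison, and 0.87% were called lower. Fitted values were lower for 35 of the 39 genes, with a median log2 change of -0.52, while 55.3% of all genes had lower fitted values and their median was -0.019. An unadjusted p below 0.05 was reached by 24 of the 39.

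The adjusted p of the 11 genes ran from 0.0279 for Mlec to 0.048 for Sel1l, close under the threshold. The number called was 20 without wild-type normal-diet array 3, all lower, with all 11 among them, where 4.1% of all genes were called lower. The number was 7 without wild-type high-cholesterol array 3, where 1.36% of all genes were called. It was 1 without Lats2-CKO high-cholesterol array 2, wild-type high-cholesterol array 1 or Lats2-CKO normal-diet array 2 (0.329%, 0.618% and 0.428% of all genes). It was 0 without any single one of the 7 other arrays, where 0.0271% to 0.379% of all genes were called. With the array sets as a block 0 of the 39 genes were called, where 0.194% of all genes were. The 11 genes called without the block then had log2 changes of -0.74 to -2.90 and adjusted p from 0.0631 to 0.095 in limma. With that block and without wild-type normal-diet array 3 the number was 23, where 5.54% of all genes were called. By role, the 20 genes called without this array were 8 of 10 chaperones, 3 of 5 disulfide isomerases and oxidases, 2 of 3 lectins, 3 of 7 ERAD genes, 2 of 5 genes of the translocon and glycosylation, 1 of 4 among sensors with Xbp1, and 1 of 5 of the ATF4 arm.

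**Figure D1:**
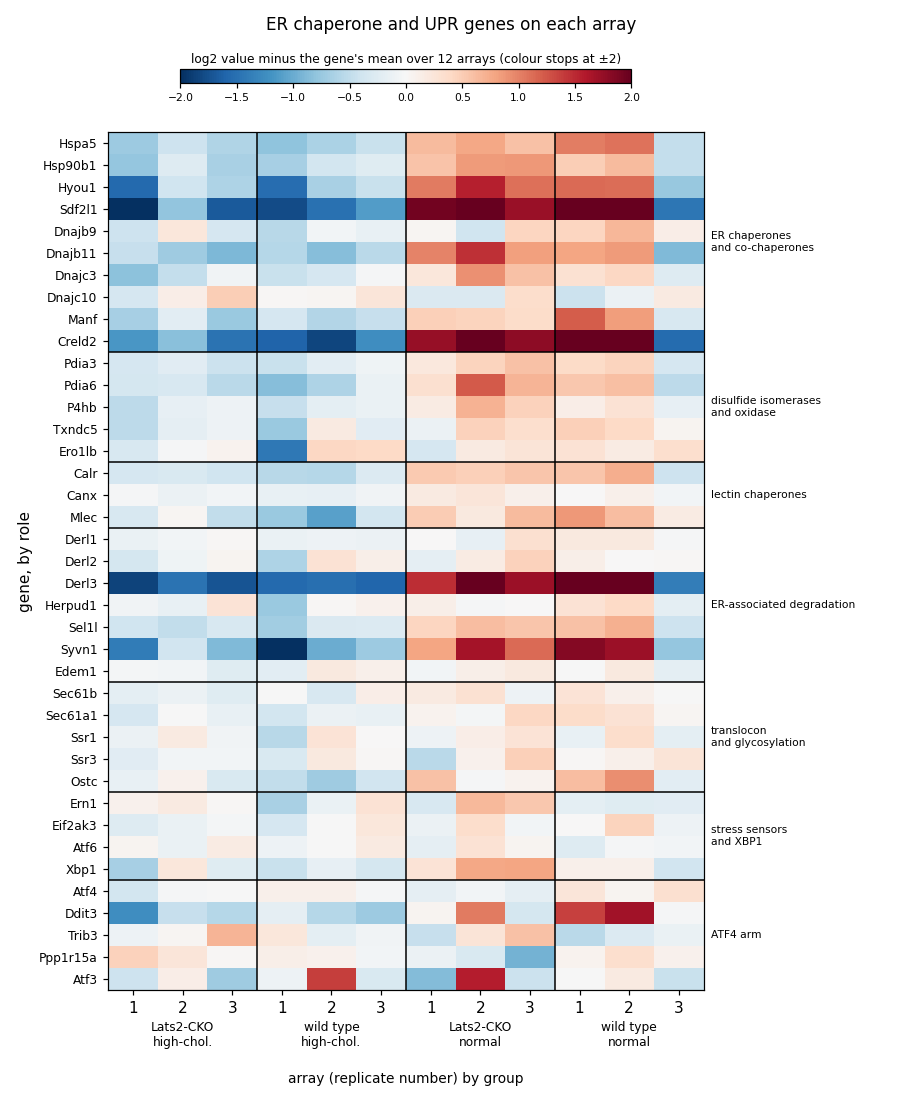
Each row is 1 of the 39 genes, ordered by role, and each column 1 of the 12 arrays in their 4 groups. The colour is the log2 value minus the gene's mean over the 12 arrays. The rows of Sdf2l1, Creld2, Derl3 and Syvn1 are blue on all 6 high-cholesterol arrays and on wild-type normal-diet array 3, and red on the other 5 normal-diet arrays, while the rows of Atf6, Eif2ak3 and Atf4 stay pale.

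Among the chaperones and co-chaperones 6 of 10 fell. Hspa5 encodes BiP, the HSP70 of the ER and the protein that holds the stress sensors inactive. Hspa5 read 8.73, 9.04 and 8.85 in Lats2-CKO and 8.65, 8.82 and 9.01 in wild-type livers on high cholesterol, against 10.08, 10.23 and 10.04 in Lats2-CKO and 10.47, 10.53 and 8.98 in wild-type livers on the normal diet. The 6 high-cholesterol arrays were all below 5 of the 6 normal-diet arrays, and wild-type normal-diet array 3 read like them. The log2 change was -1.20 ± 0.23 (SE, 6 arrays against 6), or 2.30-fold lower, with a limma adjusted p of 0.0407, and -1.46 ± 0.09 without that array. Hsp90b1 encodes GRP94, the HSP90 of the ER. Its levels were 10.59, 11.10 and 10.70 in Lats2-CKO and 10.69, 10.99 and 11.11 in wild-type livers on high cholesterol, against 11.91, 12.21 and 12.22 in Lats2-CKO and 11.85, 11.98 and 10.87 in wild-type livers on the normal diet. Again the last of these values alone lay within the range of the high-cholesterol arrays, and the change was -0.98 ± 0.18, a 1.97-fold fall.

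Hyou1 encodes a large HSP70-like protein that exchanges nucleotide on BiP. It read 6.996, 8.15 and 7.93 in Lats2-CKO and 7.03, 7.90 and 8.10 in wild-type livers on high cholesterol, against 9.59, 10.10 and 9.65 in Lats2-CKO and 9.69, 9.66 and 7.80 in wild-type livers on the normal diet. Dnajb11, a J-domain co-chaperone of BiP, read 8.29, 8.04 and 7.85 in Lats2-CKO and 8.18, 7.90 and 8.202 in wild-type livers on high cholesterol. On the normal diet Dnajb11 read 9.75, 10.21 and 9.57 in Lats2-CKO and 9.54, 9.59 and 7.86 in wild-type livers. For both genes the high-cholesterol arrays lay more than a log2 unit below the 5 other normal-diet arrays and their range took in wild-type normal-diet array 3. Hyou1 changed by -1.73 ± 0.35 and Dnajb11 by -1.34 ± 0.27, each at a limma adjusted p of 0.0446.

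Sdf2l1, which encodes a partner of the J-domain protein Dnajb11 in the ER, and Creld2, which encodes a protein induced by ER stress, had the largest changes among the chaperones. Sdf2l1 was at 5.94, 7.16 and 6.27 in Lats2-CKO and 6.16, 6.46 and 6.84 in wild-type livers on high cholesterol, against 9.89, 9.94 and 9.68 in Lats2-CKO and 10.36, 10.22 and 6.50 in wild-type livers on the normal diet. Creld2 was at 8.21, 8.54 and 7.89 in Lats2-CKO and 7.77, 7.54 and 8.13 in wild-type livers on high cholesterol, against 11.12, 11.51 and 11.16 in Lats2-CKO and 11.38, 11.42 and 7.83 in wild-type livers on the normal diet. Both genes stood far lower on high cholesterol than on 5 of the normal-diet arrays. Sdf2l1 changed by -2.96 ± 0.57 (7.77-fold lower) and Creld2 by -2.73 ± 0.52 (6.61-fold lower), each with a limma adjusted p of 0.0407. Without wild-type normal-diet array 3 the changes were -3.59 ± 0.21 and -3.32 ± 0.14.

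The 4 other genes of this group did not pass. Manf, a secreted ER-stress-induced factor, missed the threshold narrowly at -0.9999 ± 0.22 (limma adjusted p = 0.0532), and passed at -1.23 ± 0.11 without wild-type normal-diet array 3 (adjusted p = 0.00036). Dnajc3, an inhibitor of PERK and co-chaperone of BiP, had a change of -0.72 ± 0.17 (adjusted p = 0.0634, and 0.0139 without that array). Dnajb9, a co-chaperone that represses IRE1, was at -0.43 ± 0.17 (adjusted p = 0.219). Dnajc10, a disulfide reductase of ERAD, was at 0.20 ± 0.17 (adjusted p = 0.581) and the one gene of the group with a higher fitted value.

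**Figure D2:**
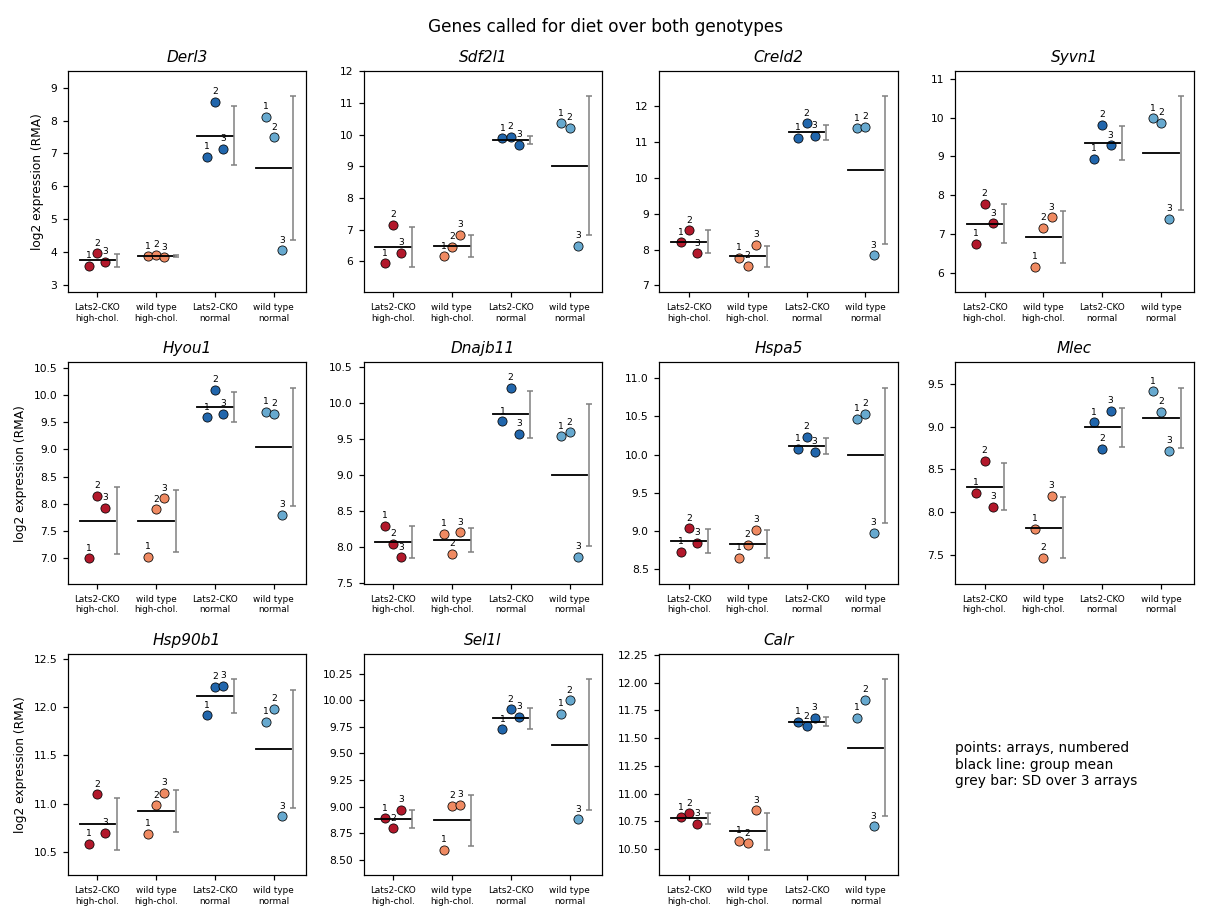
Log2 expression of the 11 genes that fell over both genotypes, 1 panel a gene, for Lats2-CKO and wild-type livers on high cholesterol and then on the normal diet. Points are arrays with their replicate numbers, black lines are group means and grey bars are SD over 3 arrays. In all 11 panels wild-type normal-diet array 3 is the lowest of the 6 normal-diet arrays, and in 9 of them it lies within the range of the high-cholesterol arrays.

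None of the 5 measured disulfide isomerases and oxidases passed, although all 5 had lower fitted values. Pdia6, an isomerase that also binds IRE1, read 8.36, 8.41 and 8.19 in Lats2-CKO and 7.87, 8.10 and 8.58 in wild-type livers on high cholesterol, against 9.04, 9.95 and 9.40 in Lats2-CKO and 9.26, 9.32 and 8.203 in wild-type livers on the normal diet. The 6 high-cholesterol arrays lay below 5 normal-diet arrays, and the change was -0.94 ± 0.22 (limma adjusted p = 0.0627). Pdia3, the isomerase that works with calnexin and calreticulin, was at -0.58 ± 0.14 (adjusted p = 0.0664), and P4hb, the classical protein disulfide isomerase, at -0.52 ± 0.12 (adjusted p = 0.0638). These 3 genes passed without wild-type normal-diet array 3, at adjusted p = 0.00484, 0.00271 and 0.0187. Txndc5, a thioredoxin-domain isomerase, was at -0.53 ± 0.16, and Ero1lb, the oxidase that recharges the isomerases in secretory cells, at -0.29 ± 0.28, and neither passed with or without that array.

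Of the 3 lectin chaperones, which hold glycoproteins while they fold, Calr and Mlec fell. Calr (calreticulin) read 10.79, 10.82 and 10.73 in Lats2-CKO and 10.57, 10.55 and 10.85 in wild-type livers on high cholesterol, against 11.65, 11.61 and 11.69 in Lats2-CKO and 11.69, 11.85 and 10.71 in wild-type livers on the normal diet. Wild-type normal-diet array 3 read like the high-cholesterol arrays, and the change was -0.81 ± 0.17 (limma adjusted p = 0.0461). Mlec (malectin, which binds early glycans) read 8.23, 8.60 and 8.06 in Lats2-CKO and 7.81, 7.46 and 8.19 in wild-type livers on high cholesterol. On the normal diet Mlec read 9.06, 8.75 and 9.19 in Lats2-CKO and 9.42, 9.17 and 8.72 in wild-type livers. Here the diets did not overlap on any array, and the change of -0.99 ± 0.16 had the smallest limma adjusted p of the 39 genes, 0.0279. Over all 12 arrays the high-cholesterol values lay wholly below the others for 2 of the 39 genes, Mlec and Derl3. This was so for 0.974% of all genes. Canx (calnexin), the membrane-bound relative of calreticulin, did not pass, at -0.19 ± 0.06 (adjusted p = 0.125). Its levels ran from 11.68 to 11.81 on the high-cholesterol arrays and from 11.77 to 12.07 on the normal-diet arrays.

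In ERAD 3 of 7 genes fell. Derl3, a derlin of the ERAD channel, had the largest change of the 39 genes. It read 3.57, 3.96 and 3.70 in Lats2-CKO and 3.87, 3.91 and 3.84 in wild-type livers on high cholesterol, not far above the 30th percentile of all values on these arrays (3.05). On the normal diet Derl3 read 6.90, 8.58 and 7.15 in Lats2-CKO and 8.11, 7.48 and 4.05 in wild-type livers. The diets did not overlap, since even wild-type normal-diet array 3 lay just above the highest high-cholesterol array, far from the 5 other normal-diet arrays. The log2 change was -3.24 ± 0.59, or 9.43-fold lower (limma adjusted p = 0.0389). Values near the lower end of the scale can be compressed, so the size of this change is uncertain.

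Syvn1 encodes HRD1, the ubiquitin ligase of the ERAD channel, and Sel1l its partner. Syvn1 read 6.75, 7.77 and 7.28 in Lats2-CKO and 6.16, 7.16 and 7.43 in wild-type livers on high cholesterol, against 8.94, 9.82 and 9.28 in Lats2-CKO and 9.98, 9.86 and 7.39 in wild-type livers on the normal diet. Sel1l read 8.89, 8.80 and 8.97 in Lats2-CKO and 8.59, 9.01 and 9.02 in wild-type livers on high cholesterol, against 9.73, 9.91 and 9.85 in Lats2-CKO and 9.87, 9.998 and 8.88 in wild-type livers on the normal diet. Both genes of the ligase complex were lower on each high-cholesterol array than on 5 of the normal-diet arrays. Syvn1 changed by -2.12 ± 0.43 (adjusted p = 0.0461) and Sel1l by -0.83 ± 0.17 (adjusted p = 0.048 in limma). The other derlins, Derl1 and Derl2, were at -0.17 ± 0.09 and -0.20 ± 0.16. Herpud1, a scaffold of the channel, was at -0.20 ± 0.16, and Edem1, which hands over trimmed glycoproteins, at -0.08 ± 0.10. These 4 genes did not pass, either over all arrays or without array 3 of the wild-type normal-diet group.

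The 5 genes of the translocon and of glycosylation came next, and 0 of them passed over all arrays. Sec61a1, the pore of the translocon, read 10.26, 10.60 and 10.45 in Lats2-CKO and 10.23, 10.48 and 10.46 in wild-type livers on high cholesterol, against 10.68, 10.56 and 11.01 in Lats2-CKO and 10.97, 10.90 and 10.64 in wild-type livers on the normal diet. The diets overlapped through Lats2-CKO array 2 of each diet alone, and the change was -0.38 ± 0.10 (limma adjusted p = 0.0916, and 0.0352 without wild-type normal-diet array 3). Ostc, a subunit of the oligosaccharyltransferase, was at -0.65 ± 0.18 (adjusted p = 0.104, and 0.00633 without that array). Sec61b, a small subunit of the pore, was at -0.25 ± 0.10, and Ssr1 and Ssr3, subunits of the translocon-associated protein complex, at -0.10 ± 0.15 and -0.14 ± 0.15. Sec61b read only 3.58 to 4.03 on high cholesterol and 3.80 to 4.21 on the normal diet. Changes so near the lower end of the scale can be compressed.

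Of the sensors themselves 0 of 3 passed by diet. Ern1 had a lowest, median and highest value of 7.93, 8.63 and 8.87 on the high-cholesterol arrays, against 8.26, 8.37 and 9.22 on the normal-diet arrays. Eif2ak3 had 5.34, 5.59 and 5.90 on high cholesterol against 5.56, 5.65 and 6.12 on the normal diet. Atf6 had 8.92, 9.08 and 9.22 on high cholesterol against 8.80, 9.01 and 9.33 on the normal diet. The diets overlapped for all 3 genes, with changes of -0.07 ± 0.18, -0.18 ± 0.13 and 0.05 ± 0.09. Sensor activity lies in their phosphorylation or cleavage, which arrays do not measure.

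Xbp1 read 9.56, 10.44 and 9.98 in Lats2-CKO and 9.77, 10.06 and 9.87 in wild-type livers on high cholesterol, against 10.49, 11.002 and 11.01 in Lats2-CKO and 10.32, 10.33 and 9.83 in wild-type livers on the normal diet. In Lats2-CKO livers the diets did not overlap, which held in this direction for 10.5% of all genes. In wild-type livers array 3 of the normal diet lay among the high-cholesterol arrays. The change over both genotypes was -0.55 ± 0.16 and did not pass (limma adjusted p = 0.113), but it did without that array (-0.63 ± 0.16, adjusted p = 0.0419). Spliced and unspliced Xbp1 were not analysed apart here.

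In the ATF4 arm, which adapts translation and amino acid supply and can lead to cell death, 0 of 5 genes passed. Ddit3 (CHOP), a transcription factor of prolonged stress, read 3.73, 4.51 and 4.40 in Lats2-CKO and 4.80, 4.40 and 4.24 in wild-type livers on high cholesterol, against 5.02, 6.02 and 4.62 in Lats2-CKO and 6.34, 6.65 and 4.94 in wild-type livers on the normal diet. Within each genotype the diets did not overlap, which held in this direction for 10.5% of all genes in Lats2-CKO livers and 8.81% in wild-type livers. The change was -1.25 ± 0.32 (limma adjusted p = 0.0789, and 0.00672 without wild-type normal-diet array 3). Atf4 itself was at -0.07 ± 0.08, its target Trib3, a pseudokinase, at 0.19 ± 0.19, and Atf3, a stress-induced factor, at 0.00 ± 0.42. Atf3 varied widely within groups, with 5.61 on 1 wild-type high-cholesterol array and 5.802 on 1 Lats2-CKO normal-diet array against 3.36 to 4.41 on the 10 others. Ppp1r15a (GADD34), which restores translation after stress, was the gene with the highest fitted change, 0.29 ± 0.14 (adjusted p = 0.298).

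The diet comparison was then made within each genotype. In Lats2-CKO livers 0 of the 39 genes passed, against 0.271% of all genes called. Fitted values were lower for 35 genes, with a median of -0.42, the smallest limma adjusted p was 0.0625 (Hsp90b1), and 21 genes had an unadjusted p below 0.05. In wild-type livers 0 passed as well, where 0% of all genes did. There the fitted change was below 0 for 33 genes, the median was -0.42, the smallest limma adjusted p was 0.307 (Mlec), and 18 genes had an unadjusted p below 0.05. Array by array, for 20 of the 39 genes, including all 11 that fell over both genotypes, the 3 Lats2-CKO high-cholesterol arrays lay below the 3 Lats2-CKO normal-diet arrays. This was so for 10.5% of all genes. Ppp1r15a was the one gene with the 3 high-cholesterol arrays above, at 4.91, 4.70 and 4.47 on high cholesterol against 4.33, 4.14 and 3.503 on the normal diet. This direction was seen for 8.98% of all genes. In wild-type livers the high-cholesterol arrays lay below for 9 of the 39 genes, against 8.81% of all genes, and above for 0, against 4.97%. Without wild-type normal-diet array 3 these were 25, against 21.6%, and 2, against 14.7%.

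All groups share an estimate of the spread, so the array labelled wild-type normal diet 3 enters the test in Lats2-CKO livers too. Without it 14 genes fell in Lats2-CKO livers, where 1.11% of all genes were called lower, and 15 fell in wild-type livers, where 1.54% were. Without wild-type high-cholesterol array 3, 1 of the 39 genes was called in wild-type livers, where 0.302% of all genes were called. Without any other single array 0 were called in either genotype. When only the Lats2-CKO arrays were fitted, 12 were called, where 1.19% of all genes were called. Of the 14 and 15 genes, 12 were shared: Hspa5, Hsp90b1, Hyou1, Sdf2l1, Dnajb11, Creld2, Manf, Pdia3, Calr, Derl3, Sel1l and Syvn1. Dnajc3 and Pdia6 passed in Lats2-CKO livers and not in wild-type livers, and Mlec, Ostc and Ddit3 the other way round. No difference between the genotypes was shown for any of them, since 0 of the 39 genes passed for the interaction, with or without that array. Over both genotypes without that array, the diets did not overlap for 17 of the 39 genes, which held for 3.49% of all genes.

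**Figure D3:**
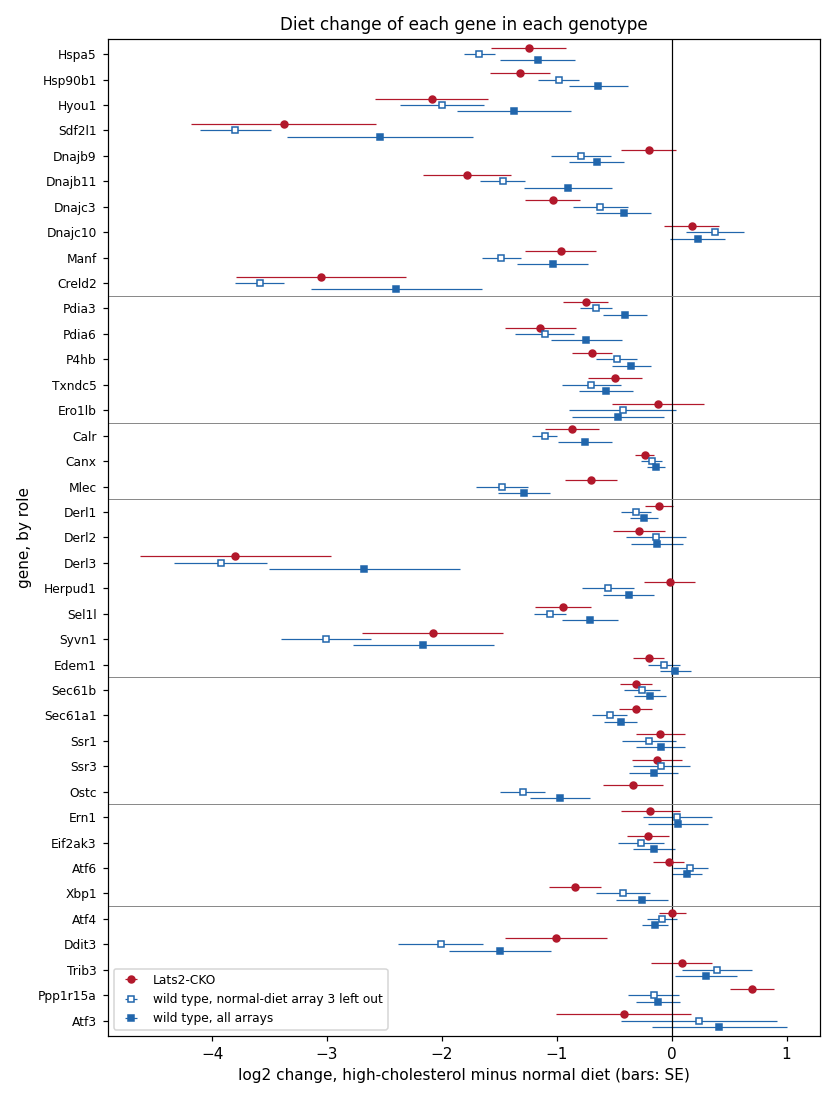
Log2 change by diet (high-cholesterol minus normal) of each of the 39 genes, with bars of 1 SE. Red circles are Lats2-CKO livers, open blue squares wild-type livers without normal-diet array 3, and filled blue squares wild-type livers with all arrays. For Sdf2l1, Creld2, Derl3 and Syvn1 the open squares lie at -3.80, -3.58, -3.93 and -3.01, to the left of the filled squares at -2.54, -2.40, -2.68 and -2.16.

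The array labelled wild-type normal diet 3 read within the range of the 6 high-cholesterol arrays for 33 of the 39 genes, and below the 5 other normal-diet arrays for 22. Both held for 20 of the 39 genes, and for 14.9% of all genes. The share over all genes was not taken for either condition alone. The mean level of the 39 genes was 7.84, 8.14 and 8.01 in Lats2-CKO and 7.76, 8.04 and 8.11 in wild-type livers on high cholesterol, against 8.59, 8.95 and 8.79 in Lats2-CKO and 8.86, 8.91 and 8.06 in wild-type livers on the normal diet. The last of these values was the only one of the 6 normal-diet means within the range of the high-cholesterol means. Within the array sets the median difference of the 39 genes was -0.81 in the set of higher medians, with 35 genes lower, and -0.33 in the set of lower medians, with 32 lower. In Lats2-CKO livers these were -0.67 and -0.49, and in wild-type livers -0.86 and 0.0007. In each genotype 1 high-cholesterol array stood against 2 normal-diet arrays in the set of higher medians. In the set of lower medians 2 stood against 1, so each difference rests on a single array on 1 side. For wild type in the set of lower medians that single array was normal-diet array 3.

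By genotype none of these genes was called. Of the 39, 0 passed over both diets (0.00451% of all genes called), 0 on the high-cholesterol diet (0%), 0 on the normal diet (0.0135%) and 0 for the interaction (0.00451%). An unadjusted p below 0.05 in limma was reached by 2, 0, 4 and 1 genes. Median log2 differences, Lats2-CKO minus wild type, were 0.08 over both diets, 0.01 on high cholesterol and 0.12 on the normal diet. Without wild-type normal-diet array 3 the signs of the first and the last turned: the medians were -0.04 over both diets, with 22 in place of 14 genes lower, and -0.11 on the normal diet, with 25 in place of 14 lower, and again 0 genes passed. On the normal diet Xbp1 read higher on every Lats2-CKO array than on any wild-type array, by 0.68 ± 0.23 (limma adjusted p = 0.362), while Atf4 was at -0.34 ± 0.12 (adjusted p = 0.37) and Ppp1r15a at -0.62 ± 0.19 (adjusted p = 0.31), and for Atf4 and Ppp1r15a every Lats2-CKO array lay below the wild-type arrays. With all arrays such groups without overlap were thus found for 1 of the 39 genes in the higher direction, against 5.96% of all genes. In the lower direction they were found for 2, against 7.36%, so here the 39 genes were not above the share over all genes. Without wild-type normal-diet array 3 they were found for 9 of the 39 genes in the lower direction, against 14.8% of all genes. In the higher direction they were then found for 1, against 11.5%. Ppp1r15a had the smallest p for the interaction, at 0.82 ± 0.27, with a limma unadjusted p of 0.0126 and an adjusted p of 0.752.

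Changes by diet were set beside the promoter motifs. Of the 10 genes with an ERSE in the window, 6 were among the 11 that fell (Hspa5, Hsp90b1, Creld2, Calr, Derl3 and Syvn1), and the fitted change was below 0 in all 10, from -3.24 (Derl3) to -0.19 (Canx) around a median of -0.96. Of the 23 measured genes whose window held none, 4 fell (Sdf2l1, Dnajb11, Mlec and Sel1l), and the median was -0.20. The 6 genes without a window in the table included Hyou1, which fell, and had a median of -0.52. Canx and Ero1lb, with an ERSE, had changes of -0.19 and -0.29, and Sdf2l1, with no match in its window, had -2.96. The share called lower over all genes was 0.87%. Windows of 37 genes in all held an ERSE, and changes of those outside the 40 were not examined. The 10 ERSE genes were chaperones, lectins, disulfide isomerases and oxidases, and ERAD genes, with none from the translocon, sensor or ATF4 groups. Motif and role were not separated, and a link between motif and change was not tested. The 170 bases before the start are shown for Hspa5, for the 3 ERSE genes with the largest changes and for Sdf2l1, 5′ to 3′ on the strand of the gene, with CCAAT and CCACG of the ERSE, or their reverse complements, in capitals.
Hspa5, chr2:34771920-34772089, plus strand: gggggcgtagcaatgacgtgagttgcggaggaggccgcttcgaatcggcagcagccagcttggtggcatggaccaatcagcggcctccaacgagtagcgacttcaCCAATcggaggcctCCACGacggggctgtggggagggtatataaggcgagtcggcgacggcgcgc
Syvn1, chr19:6046406-6046575, plus strand: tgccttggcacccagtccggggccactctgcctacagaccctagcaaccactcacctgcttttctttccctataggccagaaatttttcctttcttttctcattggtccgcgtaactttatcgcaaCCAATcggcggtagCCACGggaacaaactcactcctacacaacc
Creld2, chr15:88819476-88819645, plus strand: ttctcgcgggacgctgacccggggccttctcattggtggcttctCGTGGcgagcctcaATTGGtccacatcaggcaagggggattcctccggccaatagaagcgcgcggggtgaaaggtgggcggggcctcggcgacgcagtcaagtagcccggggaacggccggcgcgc
Derl3, chr10:75893228-75893397, plus strand: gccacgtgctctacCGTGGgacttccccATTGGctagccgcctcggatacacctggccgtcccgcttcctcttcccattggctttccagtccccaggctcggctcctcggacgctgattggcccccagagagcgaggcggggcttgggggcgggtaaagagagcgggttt
Sdf2l1, chr16:17132384-17132553, minus strand: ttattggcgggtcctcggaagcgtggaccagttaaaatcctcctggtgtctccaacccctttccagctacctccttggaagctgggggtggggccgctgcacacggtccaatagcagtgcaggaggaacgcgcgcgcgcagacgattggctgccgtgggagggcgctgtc
In Hspa5 and Syvn1 the element reads CCAAT first on the strand of the gene, 47 and 26 bases before the start, and in Creld2 and Derl3 it lies on the opposite strand, 108 and 138 bases before it. The stretch of Sdf2l1 holds none. The related ERSE-II (ATTGG and CCACG, 1 letter apart) was in windows of Dnajb11 and Herpud1 and in 0.0365% of all windows. The UPR element (TGACGTGG) was in a window of Txndc5 and in 0.676% of all windows, and the core of the composite C/EBP and ATF site (TGATGCAA) was in windows of Atf3 and Herpud1 and in 0.895%. All motifs were searched on both strands, and a match is a description of letters, not a measured binding site.

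**Figure D4:**
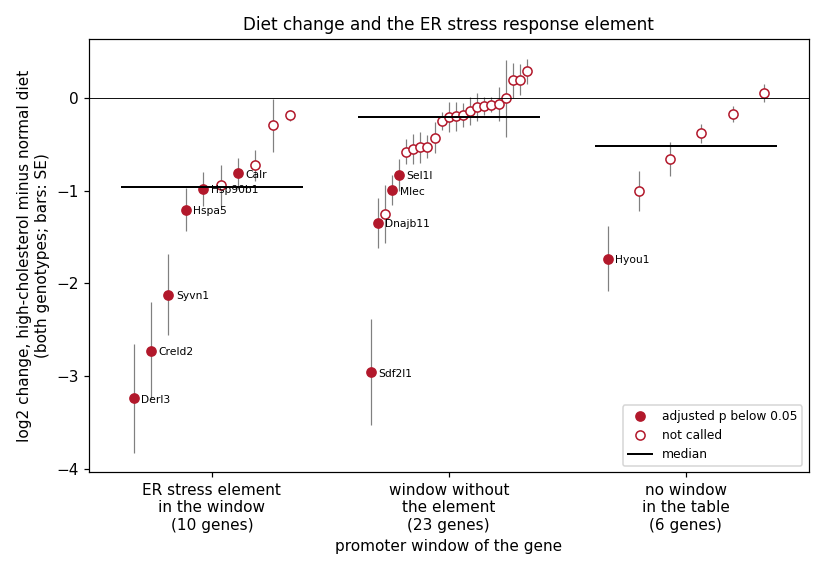
Log2 change by diet over both genotypes (high-cholesterol minus normal) with bars of 1 SE, for the 10 genes with an ERSE in the promoter window, 23 with a window and none, and 6 without a window in the table. Filled points passed the test, open points did not, and lines are medians, at -0.96, -0.20 and -0.52.

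Other genes of the same pathways, from lists without the 40, were called in part. Among ER to Golgi transport genes 5 of 22 fell, among them Mcfd2, a cargo receptor of clotting factors (-0.75 ± 0.11), Kdelr2, which retrieves chaperones to the ER (-0.60 ± 0.11), and Sec22b, a fusion protein of transport vesicles (-0.47 ± 0.08). Of 19 other ER folding genes 2 fell, the disulfide isomerase Pdia5 (-0.79 ± 0.11) and the calcium-binding Nucb2 (-1.30 ± 0.27). In each of 3 further lists 1 gene fell: the mannosyltransferase Alg12 among 20 N-glycosylation genes (-1.33 ± 0.27), the ER-bound cofactor Ubxn4 among 20 other ERAD genes (-0.65 ± 0.13), and the transcription factor Atf5 among 21 other genes of the ATF4 arm (-0.90 ± 0.17). None of 19 other translocon genes and none of 10 other sensors and ER-bound factors passed, where the smallest p values were those of Ssr2 (-0.56 ± 0.13, limma adjusted p = 0.068) and of the ER-bound factor Creb3l2 (-1.05 ± 0.23, adjusted p = 0.0582). No gene of these lists rose. Without wild-type normal-diet array 3 the numbers were 10 of 22, 6 of 19, 8 of 20, 5 of 20, 3 of 21, 3 of 19 and 3 of 10, all lower except 1 ERAD gene. Medians of the lists over all arrays ran from -0.34 for N-glycosylation to -0.06 for the ATF4 arm, against -0.52 for the 39 genes.

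Markers of the cells in the tissue were read alongside. Hepatocyte markers averaged 12.2 to 12.3 on the high-cholesterol arrays and 12.2 to 12.4 on the normal-diet arrays, and 0 of 9 passed. Macrophage and Kupffer cell markers had a median change of 1.01, and 3 of 11 rose: the macrophage scavenger protein Cd5l by 1.78, the protease Ctss by 1.41 and the Kupffer cell lectin Clec4f by 0.53. Without wild-type normal-diet array 3, 5 of 11 rose. Of all 22180 genes 81 rose with all arrays and 696 without that array. The mean level of the macrophage and Kupffer cell markers on high cholesterol was 6.73 to 7.24 in Lats2-CKO and 7.06 to 8.77 in wild-type livers. On the normal diet it was 6.06 to 6.33 in Lats2-CKO and 6.65 to 6.98 in wild-type livers. Markers of B cells and plasma cells, which are rich in ER, averaged 3.36 to 3.57 in Lats2-CKO and 3.398 to 4.40 in wild-type livers on high cholesterol, against 3.38 to 3.47 in Lats2-CKO and 3.53 to 3.57 in wild-type livers on the normal diet. Of these 0 of 10 passed, and Irf4 and Tnfrsf17 averaged below the 30th percentile of all values. Pancreatic acinar markers, of another secretory cell, averaged 2.90 to 3.18 on all arrays, 0 of 6 passed, and Cel, Cela1 and Cpa1 were below that percentile.

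Of the other lists, 1 of 8 endothelial markers fell (the angiopoietin receptor Tek, by 0.42), and 0 of 8 stellate cell and fibroblast, 0 of 8 T and NK cell, 0 of 5 cholangiocyte and 0 of 5 adipocyte markers passed. Without wild-type normal-diet array 3, 1 hepatocyte marker and 1 stellate cell marker were called lower. The part of the macrophage markers in the changes of the 39 genes was not tested.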

How the data were processed

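Per the submitters' processing notes, the authors made the deposited log2 expression values with RMA in Partek 6.6. The settings of RMA and the genome build behind the probe sets are not given in the sources used here, and precision is limited by how many arrays there are. No 2 arrays were identical. Of 41345 probe sets, 23521 had 1 gene symbol, 1814 several and 16010 none. Symbols were updated by gene identifier through a RefSeq gene table (23328 probe sets), and for the 1082 genes with several probe sets the one with the highest mean was used, which left 22180 genes.

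The test on the log2 values was that of limma 3.58.1 (lmFit, eBayes; R 4.3.3), in 1 fit of 4 group means over 12 arrays, with Benjamini-Hochberg adjustment over all genes and a threshold of 0.05, after the fit had been tested on simulated data. P-values measure the spread between what the labels call biological replicates. The genes and lists were chosen with earlier results of these data known. Values on every array are given for genes that passed and did not overlap (Derl3, Mlec) and for the gene with the smallest p in each role. The others printed so were chosen after their values were seen. Up to 3 genes past the threshold, or else the one with the smallest p, were named from each other list. Alternatives were a replicate block, a trended and robust prior, dim genes left out (mean below the 30th percentile), the mean of probe sets, quantile normalisation, median centring, array sets as a block, only the groups compared, and each array left out in turn. Protein sequences were not used here.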

Additional observations from a re-analysis of the deposited data

How the results depend on the processing

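The number of the 39 genes called for diet over both genotypes was 11. It ranged from 0 to 20 when arrays were left out in turn, and was 7 with median centring, 0 with the array sets as a block, and 23 with that block and without wild-type normal-diet array 3. In Lats2-CKO livers the number was 0, with 1 under a trended and robust prior, 1 with dim genes left out, 12 with only the groups compared, 0 to 14 when arrays were left out, and 18 with the array set block and without wild-type normal-diet array 3, of which 17 were lower and 1 higher (Ppp1r15a, at 0.83, limma adjusted p = 0.0287). In wild-type livers it was 0, with 0 to 15 when arrays were left out (1 without high-cholesterol array 3), and 16 with the block and without wild-type normal-diet array 3. Over all genes the number called for diet over both genotypes was 274, and ranged from 6 without wild-type normal-diet array 2 to 1605 without array 3 (421 with dim genes left out, 43 with the array set block). In Lats2-CKO livers it was 60, with a range of 5 to 573, and in wild-type livers 0, with a range of 0 to 516. With the array set block and without wild-type normal-diet array 3, 5.54% of all genes were called over both genotypes. In that setting 2.58% were called in Lats2-CKO livers and 1.69% in wild-type livers. With only the groups compared, 1.19% of all genes were called in Lats2-CKO livers. In these livers 0.442% were called under a trended and robust prior and 0.708% with dim genes left out. No gene of the 39 changed its sign while called, and the median change over both genotypes stayed between -0.73 and -0.41 under these alternatives. For genotype and for the interaction 0 of the 39 genes were called under any of them. The labels do not say that a replicate number marks a shared batch, and pairing by number was not established: deviations of same-numbered arrays correlated at 0.002 to 0.176, above 0 in all 18 pairs but over 0.1 in 7. As a hint from the data, 11 of 12 arrays correlated best with their own number. The number also followed the array set, with all 4 arrays numbered 1 in the set of higher medians and all 4 numbered 3 in the set of lower medians. A replicate block left 11 of the 39 genes and 311 of all genes called for diet over both genotypes. With 3 arrays a group, precision is limited, and the cause of these differences between settings was not tested.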
